A study of Rattus norvegicus with 20 samples.

Results

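ENSRNOG00000019745 is the Ensembl identifier of a single rat gene, 1 of 24613 in a table of RNA sequencing counts from the soleus. It was chosen because, among the genes tested, it had the highest fold change after transection of the spinal cord, so its levels in transection and uninjured muscle describe how it was picked and are given with no test. The files do not pair identifiers with gene names, and the RefSeq table used for names carries an Ensembl identifier for 0 of its 47357 genes. The gene is therefore described by its identifier and its values, and neither its position, its sequence nor its function is given here.

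The animals were Sprague-Dawley rats whose ages are not given in the labels. The 20 libraries came from 5 groups of 4 rats: an uninjured group, a group with a complete transection at T2 (the upper thoracic cord), and 3 groups with a 25 g-cm contusion at T2, of which the first had no exercise, the second swam (SWIM) and the third walked in shallow water (SWW). Injured rats had a laminectomy at that level, and per the design text all animals lived in small cages from 4 days on; exercise began 2.5 weeks after contusion and ran for 10 weeks on 5 days a week. Sampling was at 8.5 weeks for transection, at 11.5 weeks for contusion alone and at 13.5 weeks for both exercise groups, and the uninjured group carries the label of 11.5 weeks, so time, injury and exercise cannot be told apart in most comparisons. A contusion spares part of the cord, so contused rats keep some descending input, whereas a complete transection leaves none.

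The soleus is a calf muscle used for posture, rich in slow, oxidative fibres that work against gravity. When it loses load and nerve drive, as below a spinal cord injury, slow fibres are known to waste and to shift toward the contractile and metabolic genes of fast fibres. A muscle sample also holds vessels, nerve, connective tissue and other cells, and in such bulk samples more cells of a type and more RNA per cell cannot be told apart. No cell type marker could be matched to an identifier, so the tissue label was not checked.

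Libraries held 21165832 to 39729930 counts. Levels are given as CPM, a gene's counts relative to the library's scaled total, with a correction for library composition. Swimming library 2 and contusion library 4 stood far from their groups for this gene, at opposite ends, and results that they move are given without them as well. Transection library 3 had the fewest genes with a count of the series, 13837, and the lowest scaling factor, 0.71. Its 50 most abundant genes took 60.2% of its counts, the highest such share.

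The transcript was scarce in uninjured muscle, but it was not silent. It gave 166, 340, 88 and 117 counts in the 4 uninjured libraries, which is 5.88, 7.95, 2.40 and 3.69 CPM. Its rank by count lay between 7653 and 10152 of 24613 genes, in libraries where 15516 to 15905 genes had a count. A rank by count is not corrected for transcript length and says only how much of the library the gene took. The working description of the gene as near silent thus holds only relative to its level after injury, since every uninjured library detected it well above a few counts.

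After complete transection the same gene was among the most counted in the muscle. The 4 transection libraries held 1202, 1904, 1377 and 965 CPM, from 31205 to 52328 counts. It ranked between 56 and 91 of 24613 genes there, and took up to 0.147% of a library's counts. All transection libraries lay above all uninjured ones. The ratio of group medians was 269 and that of geometric means 293. The gene was picked on these values. In the same comparison 13.5% of the 13398 genes tested had every transection library above every uninjured one, so the absence of overlap is common and the size of the change is what set the gene apart.

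**Figure D1:**
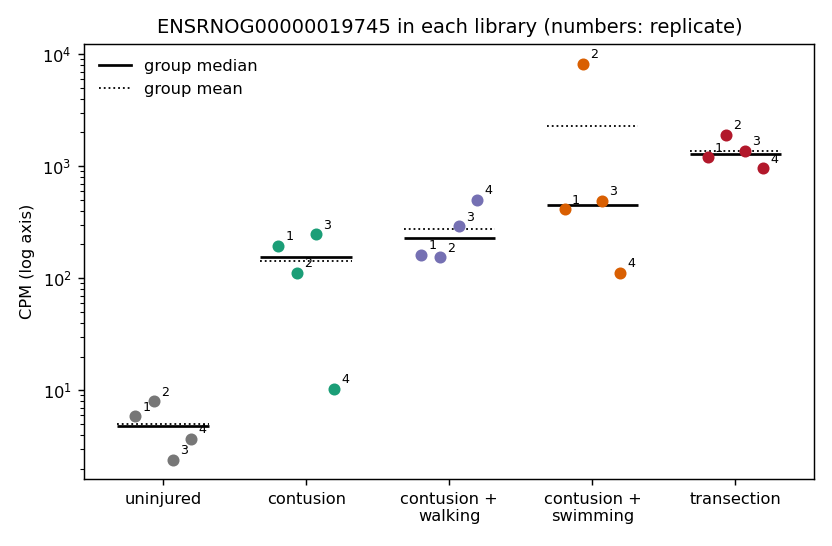
CPM of ENSRNOG00000019745 on a log axis in each of the 20 libraries, 4 per group, with the replicate number beside each point, the group median as a solid line and the group mean as a dotted line. Uninjured libraries lie below 8 CPM, swimming library 2 lies alone at 8209 CPM, and contusion library 4 lies at 10.3 CPM, close to the uninjured libraries.

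Contusion without exercise left 3 libraries at intermediate levels and 1 near the uninjured range. Contusion libraries 1, 2 and 3 held 195, 112 and 248 CPM, and contusion library 4 held 10.3 CPM. Its 371 counts carry a counting error of 5.19%, and the 340 counts of the highest uninjured library, at 7.95 CPM, one of 5.42%. Contusion and uninjured libraries thus did not overlap, as for 3.58% of tested genes with contusion the higher group, and contusion library 4 sets how narrow the gap is. The ratio of medians was 32.1 and the ratio of geometric means 19.1. Uninjured libraries took part in choosing the gene, so no test is given.

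Contused rats that walked in shallow water held a narrower range. Their libraries stood at 162, 155, 292 and 502 CPM, with ranks between 205 and 660. None fell to the level of contusion library 4, and walking library 4, the highest, had 36604027 counts, the largest total of its group. All walking libraries lay above all uninjured ones, as for 4.41% of tested genes, with a ratio of medians of 47.4.

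Contused rats that swam spanned the widest range of any group. Swimming libraries 1, 3 and 4 held 413, 494 and 112 CPM, overlapping the walking group, while swimming library 2 held 8209 CPM. In that library the gene gave 185924 of 21165832 counts, or 0.878%, and only 21 genes had more counts. The group mean was 2307 ± 3938 CPM (SD, n = 4) and its median 453 CPM. The mean therefore describes none of the 4 animals. All swimming libraries lay above all uninjured ones, as for 11.5% of tested genes.

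The order of the groups depended on whether means or medians were read. By median CPM it ran from uninjured (4.79) through contusion (153), walking (227) and swimming (453) to transection (1290). By mean CPM swimming passed transection, at 2307 against 1362, through library 2 alone. Of the neighbours in this order only uninjured and contusion did not overlap. Contusion with walking, walking with swimming, and swimming with transection all overlapped, the last pair because swimming library 2 exceeded every transection library while the other swimming libraries lay below all of them. Transection libraries stayed above all contusion libraries (9.24% of tested genes did so) and above all walking libraries (10.2%), with ratios of medians of 8.41 and 5.68.

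Only comparisons among the 3 contused groups were tested. None of these groups was used to choose the gene, but the edgeR fit took its spread and filter from all 20 libraries, the choosing ones included. Swimming against contusion asks what this exercise adds to the injury, with 2 weeks more of recovery. The fitted log2 difference was 4.03 (SE 1.13), and it narrowly missed the threshold of 0.05 (edgeR quasi-likelihood test, adjusted p = 0.0526), while 4.48% of all tested genes passed. With the compared groups alone, which leaves out the libraries that chose the gene, the log2 difference was 4.06 (SE 1.42, edgeR adjusted p = 0.145). The call was made in 5 of 30 alternatives: with edgeR's estimate of spread that does not guard against outlying genes (adjusted p = 0.0354), with DESeq2 (1.28e-03), at a mean CPM of at least 1 (0.0438), without swimming library 4 (0.0375) and without transection library 3 (0.0496). It was not made in the other 25, among them no low-count filter (0.0842), and the fits without contusion library 1 (0.136) or contusion library 2 (0.142). The share of genes that passed is itself unsteady, since 1 gene passed without contusion library 1.

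The size of that difference rested on 1 animal. Without swimming library 2 the fitted log2 difference fell to 1.26 (SE 0.74, edgeR adjusted p = 0.371), and without contusion library 4 it was 3.67 (adjusted p = 0.0968). Without swimming library 2 and transection library 3 together it was 1.26 (SE 0.77, edgeR adjusted p = 0.361). The fitted value follows group means, whose ratio was 16.3, whereas the ratio of medians was 2.95 and voom, which weights libraries by their quality, gave a log2 difference of 2.14 (adjusted p = 0.0720). An exact permutation test of log2 CPM gave a two-sided p of 0.143, where the smallest that 4 against 4 libraries allow is 0.0286; adjusted over the 3 tests it was 0.386. The groups overlapped, with swimming library 4 level with contusion library 2 at 112 CPM.

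Walking against contusion gave a log2 difference of 0.98, with an SE of 1.01 and a 95% interval from -1.17 to 3.12, and missed the threshold (edgeR adjusted p = 1.00; exact permutation p = 0.257, or 0.386 adjusted). In this comparison 0% of tested genes passed with edgeR, with DESeq2 and with voom, and 426 (3.18%) had an unadjusted p under 0.05 with edgeR. The gene's ratio of medians was 1.48. Without contusion library 4 the log2 difference was 0.60, and without walking library 4 it was 0.52. With 4 animals a group the interval leaves room for a difference of several fold in this gene, so the groups are not shown to be alike.

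Swimming against walking, both at 13.5 weeks, gave a log2 difference of 3.05 with an SE of 1.08. Its 95% interval, not adjusted for the number of genes tested, ran from 0.76 to 5.35 (edgeR unadjusted p = 0.0122). After adjustment over genes the comparison missed the threshold too (edgeR adjusted p = 0.234). The exact permutation p was 0.429, the same after adjustment. Here 0.00746% of tested genes passed, which is 1 gene; 298 passed without walking library 1, 140 with DESeq2 and 315 with voom. Without swimming library 2 the log2 difference was 0.29 (SE 0.74, edgeR adjusted p = 0.890); the other 3 swimming libraries, at 112 to 494 CPM, overlap the walking ones.

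Few genes scattered as much between animals of the same group. The SD of log2 CPM, pooled within groups, was 1.59 for this gene and 0.29 for the median of the 13398 genes tested, and only 26 genes had a larger one. Without swimming library 2 it was 1.20, with 101 genes larger, and without contusion library 4 it was 1.34, with 70 larger. edgeR's dispersion, its estimate of variance between animals beyond counting, was 0.832 against a median of 0.0407. Poisson counting error was between 0.232% and 10.7% of a library's count.

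The scatter was uneven over the groups. The SD of log2 CPM was 2.61 in swimming and 2.10 in contusion libraries, where only 19 and 14 tested genes had larger values. Each rested on 1 library: without swimming library 2 the SD was 1.17, with 178 genes larger, and without contusion library 4 it was 0.59, with 1288 larger. It was 0.80 after walking and 0.75 in uninjured muscle, still above 95.1% and 95.8% of genes. After transection it was 0.41, against a median gene of 0.28, and 68.7% of genes varied less. Differences in spread between groups were not tested. On the CPM scale the highest library of a group exceeded the lowest 1.97-fold after transection, 3.31-fold in uninjured muscle, 3.25-fold after walking, 24.1-fold after contusion and 73.4-fold after swimming. Without contusion library 4 and swimming library 2 the last values were 2.22-fold and 4.42-fold. These ranges cover 3 libraries each, with the most extreme one left out. They are thus not on a par with the 1.97-fold range of the full transection group.

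**Figure D2:**
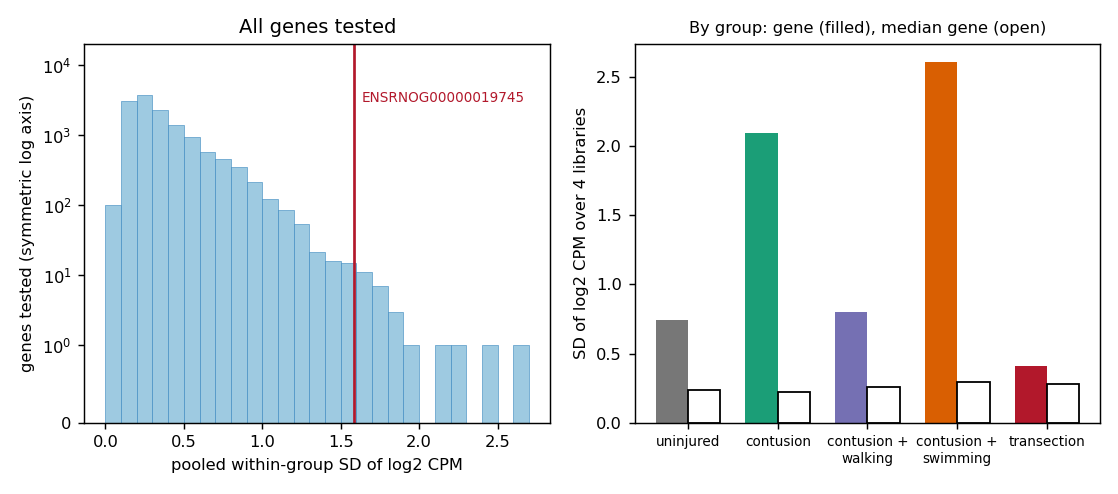
Left, the number of tested genes by SD of log2 CPM pooled within groups (bins of 0.1, symmetric log axis), with ENSRNOG00000019745 at 1.59 marked by the line. Right, the SD over the 4 libraries of each group for the gene (filled bars) and for the median gene (open bars), with the gene at 2.61 after swimming and 0.41 after transection.

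Over all 20 libraries the gene ran from 2.40 to 8209 CPM, a 3417-fold range and the third widest of the 13398 genes tested on the log2 scale. The low end was uninjured library 3, which took part in choosing the gene. A wide range thus partly follows from that choice. The libraries at its ends were looked at after these values were seen. Contusion library 4 lay 10.8-fold below the lowest of the other 11 contused libraries (with 0.1 CPM added to each value), the widest such gap of any tested gene, where 0.0299% of genes had a gap over 4-fold. Swimming library 2 lay 4.31-fold above the next highest library, transection library 2, and 0.209% of genes had a gap over 4-fold there.

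In their overall measures swimming library 2 had the smallest total of the series, at 21165832 counts, with 15478 genes with a count and a scaling factor of 1.07. Contusion library 4 had 35986860 counts, 15515 genes with a count and a scaling factor of 1.00. Among the 12 contused libraries the number of genes with a count ran from 15274 to 16103. The part of library quality or dissection in the 2 levels was not tested.

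Whether the gene tracks the wider response to transection was read in the 12 contused libraries, none of which was used to choose the gene. A profile score was formed for each library as the mean log2 CPM of the 1788 other genes that rose after transection minus that of the 1976 that fell. Uninjured libraries, which define the score, lay between -0.92 and -0.55 and transection libraries between 0.94 and 1.48. Contused libraries lay between -0.36 and 0.41. The score's genes were chosen for separating the 2 defining groups, so a place between those groups says little by itself.

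In these 12 libraries the gene's log2 CPM and the score gave a Pearson r of 0.698 (permutation p = 0.0458) and a Spearman rho of 0.406 (permutation p = 0.191). Over the 4 relations computed the adjusted values were 0.183 and 0.396. For all 4 relations the permutations shuffled the 12 libraries without regard to group. Their p-values thus mix differences between groups with those between libraries of a group. The relation rested on swimming library 2, which had the highest score (0.41) as well as the highest level. Without the 2 libraries farthest from the median score, swimming 2 and walking 2, r was 0.107 and rho 0.0909, and without swimming library 2 alone r was 0.137. Within groups, as deviations from group means, r was 0.692. That value includes swimming library 2, which lay far above its group on both measures, and it was not computed without that library. Contusion library 4, at the bottom of the contused range for the gene, had a score of -0.23, amid those of the other contused libraries.

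The other relations were with technical measures. The gene's log2 CPM gave r = -0.450 with the library total (rho = -0.336), r = -0.175 with the number of genes with a count (rho = -0.329) and r = 0.0239 with the share of the 50 most abundant genes (rho = 0.147). Their permutation p-values were 0.172, 0.558 and 0.944 for r and 0.288, 0.297 and 0.655 for rho, with adjusted values of 0.344, 0.744 and 0.944 for r and 0.396, 0.396 and 0.655 for rho. Without the 2 libraries farthest from the median of each measure, r was -0.376, -0.00799 and -0.120. As deviations from group means the 3 values of r were -0.484, -0.661 and 0.505.

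**Figure D3:**
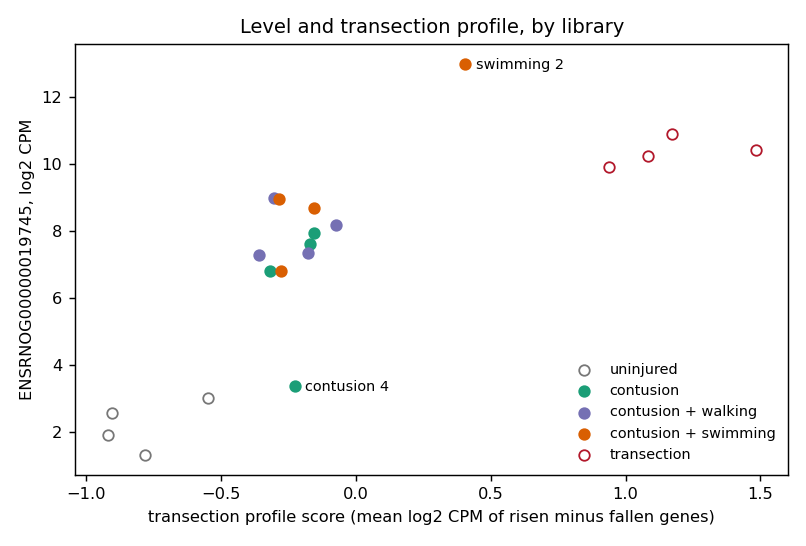
Level of ENSRNOG00000019745 (log2 CPM) against the transection profile score (log2 units) in the 20 libraries, with the 12 contused libraries filled and the uninjured and transection libraries, which define the score, open. Swimming library 2 has the highest score among contused libraries, 0.41, and contusion library 4 has a score of -0.23 with the lowest level of the contused libraries, above all uninjured ones.

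Genes whose log2 CPM followed it over the 20 libraries were ranked by Pearson r, as a description without p-values, since they were chosen for their r and the libraries share groups, injury and depth. Of 13397 other genes, 128 (0.955%) had r of at least 0.8 and 117 (0.873%) had r of at most -0.8. A median tested gene had 15 and 7 such partners, and 83.1% and 88.4% of genes had fewer than this one. The transection and uninjured libraries that chose the gene enter these values of r. Its place among genes thus partly follows from that choice. Part of that likeness lay between groups. As deviations from group means, 54 genes reached 0.8 and 7 reached -0.8. How many a median gene has on that measure was not computed. Within-group values of r, here and below, include swimming library 2 and contusion library 4, which lay farthest from their group means. They were not computed without these libraries. Over all other tested genes the within-group r had a 5th percentile of -0.54 and a 95th percentile of 0.57. Of the 128 genes, 104 kept a within-group r of at least 0.5, with a median of 0.66, and 99 kept an r of at least 0.8 without the transection libraries. Within-group differences are also part of the r for which these genes were chosen. Of the 117 genes, 58 had a within-group r of -0.5 or lower and 85 kept an r of at most -0.8 without transection. Without swimming library 2, 100 and 83 of them stayed past 0.8 and -0.8, and without contusion library 4, 120 and 114 did.

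**Figure D4:**
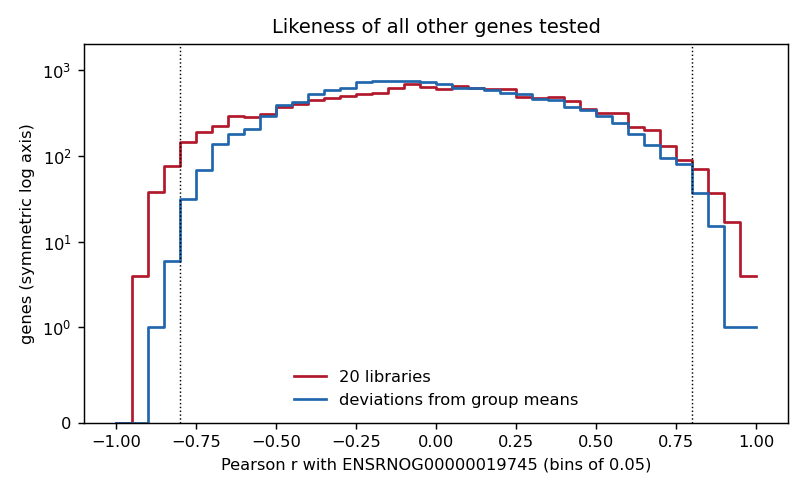
Number of tested genes (symmetric log axis) by Pearson r with ENSRNOG00000019745 in bins of 0.05, over the log2 CPM of 20 libraries (red) and over deviations from group means (blue), with dotted lines at -0.8 and 0.8. The red line has 128 genes at or above 0.8 and the blue line 54.

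The closest gene was ENSRNOG00000006471, with r = 0.970 and rho = 0.974 over 20 libraries. It also had the highest likeness of any tested gene within groups, at r = 0.963, and its r was 0.974 without swimming library 2, 0.973 without the transection libraries and 0.986 in the 12 contused libraries alone. Its uninjured libraries held 1.56, 1.15, 0.382 and 0.505 CPM, from 14 to 49 counts. Contusion libraries held 32.5, 6.63, 26.6 and 0.611 CPM, the last again in contusion library 4 and within the uninjured range. Contusion library 4 was low for both genes. ENSRNOG00000006471 was picked for its r over libraries that include this one, so that likeness is no separate evidence.

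Walking libraries held 13.8, 13.5, 61.1 and 124 CPM of ENSRNOG00000006471. Swimming libraries held 42.5, 4469, 66.0 and 10.3 CPM, the second being library 2. Transection libraries held 161, 163, 65.0 and 149 CPM. Its slope was 1.01 log2 CPM per log2 CPM of ENSRNOG00000019745, but swimming library 2 stood 27.5-fold above the next highest library, against 4.31-fold for ENSRNOG00000019745, and transection library 3 was the lowest of its group for one gene and not for the other.

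The next was ENSRNOG00000040122, with r = 0.963 and rho = 0.971, and r = 0.883 within groups. It was already well expressed without injury, at 76.6 ± 28.5 CPM, and its slope was shallower, at 0.40. It stood at 192 ± 98.3 CPM after contusion, 306 ± 84.9 after walking, 584 ± 562 after swimming and 761 ± 310 after transection (SD, n = 4 each). Swimming library 2 was its highest library, at 1421 CPM, and contusion library 4, at 97.0 CPM, its lowest contused one. Both libraries entered the r for which this gene was picked.

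**Figure D5:**
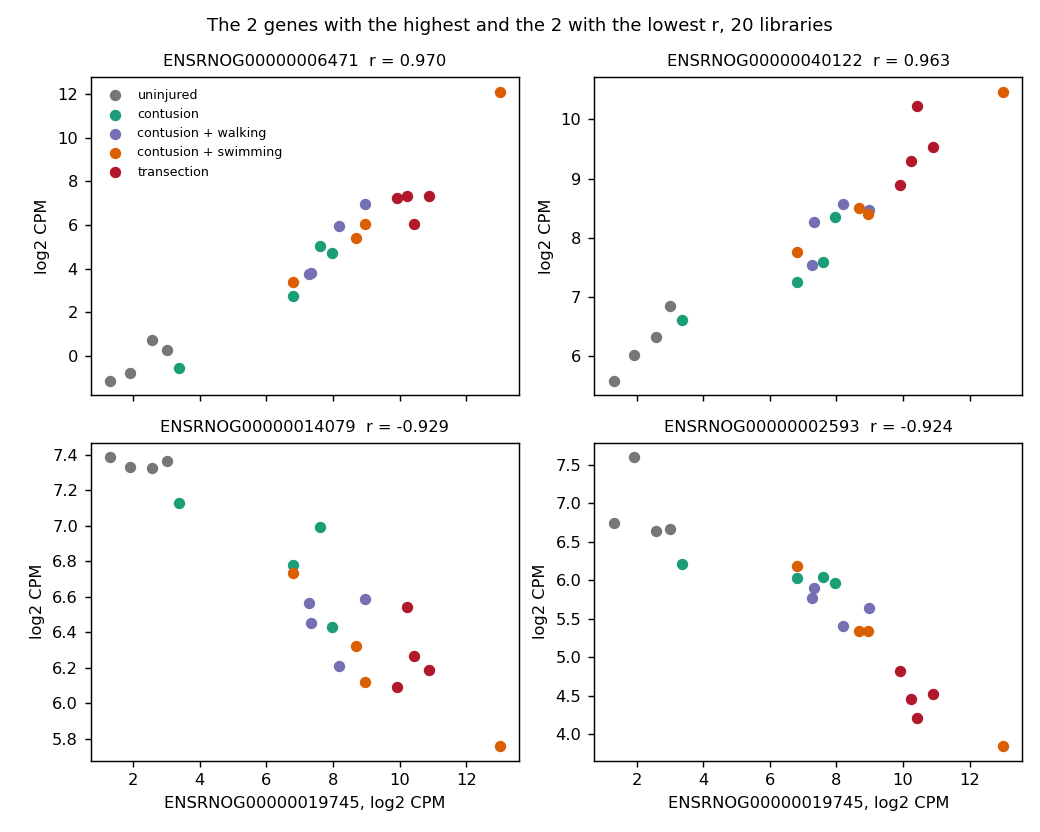
Log2 CPM of the 2 genes with the highest and the 2 with the lowest Pearson r against log2 CPM of ENSRNOG00000019745, a point per library and a colour per group. Swimming library 2 lies at the far right of each panel and contusion library 4 beside the uninjured libraries on the left.

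The genes with the lowest r ran the opposite way and over a narrower range. ENSRNOG00000014079 (r = -0.929, rho = -0.872, within groups -0.723) lay between 160 and 167 CPM in uninjured muscle and between 68.0 and 93.1 CPM after transection. It was between 86.1 and 140 CPM after contusion, 74.0 and 96.1 after walking, and 54.0 and 107 after swimming. Its slope was -0.14 log2 CPM per log2 CPM of ENSRNOG00000019745, and its lowest value of all was in swimming library 2.

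ENSRNOG00000002593 (r = -0.924, rho = -0.965, within groups -0.751) had the most negative rank correlation of any tested gene. It lay between 99.4 and 194 CPM in uninjured muscle and between 18.4 and 28.2 CPM after transection. Contused libraries lay at 62.5 to 73.8 CPM after contusion, 42.3 to 59.6 after walking and 14.3 to 72.4 after swimming, where library 2, at 14.3, was the lowest of all 20. Contusion library 4 held 73.8 CPM, the highest contused value. Without the 2 libraries farthest from the median of ENSRNOG00000019745, uninjured 3 and 4, r was 0.959, 0.945, -0.905 and -0.911 for the 4 genes in the order given.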

How the data were processed

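Poly-A RNA of soleus was made into stranded libraries, per the labels' protocols. The authors deposited whole-number counts per Ensembl gene, not normalised. FastQC 0.10.1, HTSeq and build rn6 are named in the submitters' processing notes; aligner, annotation and strand setting are not given in the sources used here, so overlapping or near-identical genes may share counts. The table held 0 rows that name no gene.

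Counts were tested with edgeR 4.0.16 (quasi-likelihood F test, robust spread, R 4.3.3) over all 20 libraries and 13398 genes past filterByExpr (minimum count 10), with trimmed-mean scaling and Benjamini-Hochberg adjustment. The design written beforehand left the robust setting open; it was taken to match earlier processing, after both values were seen. Fold changes use a prior count of 0.125, correlations log2 CPM with a prior count of 2, relations 100000 resamples. Alternatives were other scalings and filters, DESeq2 1.42.0, voom (limma 3.58.1), compared groups alone, a replicate block and each library left out. A simulation of swimming against contusion, over 13261 genes, was also tested with edgeR. Among 50 genes altered 4-fold, 92% were called. At smaller changes the share was 60% (2-fold) and 14% (1.5-fold), and 5 unaltered genes were called falsely. These shares were not split by dispersion, which was 0.832 for ENSRNOG00000019745 against a median of 0.0407. They thus do not give the chance of detecting such changes in that gene. The design text describes a muscle sample per animal; chi-square per degree of freedom between libraries of a group was 26.5 or more. The gene, the lists and the rule for named genes (the 2 highest and 2 lowest r) were chosen with earlier results of these data known; the profile score and the libraries at the ends were chosen after their values were seen. Marker lists written by symbol could not be matched. Figures were drawn with matplotlib 3.10.9.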

Additional observations from a re-analysis of the deposited data

Results flagged for a closer look

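For the 5 genes given by identifier, 50 sets of 4 values were examined, with CPM and log2 CPM of the same libraries counted as separate sets. In 7 of them a single library was isolated. Chance flags about 1 in 20 independent sets, but these sets are not independent. Of the genes, 4 were chosen for following the first or mirroring it, and the same libraries enter on 2 scales, so 1 library can be flagged on both. For ENSRNOG00000019745 this was swimming library 2, at 8209 CPM against 494 in the next. That library held 4469 CPM of ENSRNOG00000006471, the next highest 66.0, and 1421 CPM of ENSRNOG00000040122, the next highest 362. Transection library 3 held 65.0 CPM of ENSRNOG00000006471 (6.02 as log2 CPM), the next lowest 149 (7.22). Uninjured library 4 held 194 CPM of ENSRNOG00000002593 (7.60 as log2 CPM), the next highest 107 (6.74). On the log2 scale swimming library 2 and contusion library 4 did not pass the same limit for ENSRNOG00000019745.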

How the results depend on the processing

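ENSRNOG00000019745 kept its direction in all 30 alternatives of each of the 3 tests. Of these, 20 left out 1 library, often one outside the compared groups, which hardly moved the log2 difference. Such fits say little about direction. Swimming against contusion (log2 difference 4.03) passed in 5 of 30: at 4.04 with a mean CPM of at least 1, at 4.03 with edgeR's estimate that is not robust (added after seeing the data), at 4.05 with DESeq2, and without swimming library 4 or transection library 3; with a library left out it ran from 1.26 to 4.46. Adjusted p ran from 1.28e-03 to 0.371. Swimming against walking ran from 0.28 to 3.51 and walking against contusion from 0.52 to 1.40, and neither passed in any. With the replicate number as a block the log2 difference for swimming against contusion was 3.12 (adjusted p = 0.152). Same-numbered libraries of different groups had a mean r of deviations of 0.0105, against -0.00326 for different numbers. The same-numbered values ran from -0.286 to 0.428 and were over 0.1 in 8 of 40 pairs. A mean near 0 cannot show whether some same-numbered libraries shared a pairing or a batch.

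Genes called for swimming against contusion numbered 600, and 299 with library totals only, 317 with no low-count filter, 343 with the replicate block, 322 with the compared groups alone, 1203 with DESeq2, 1755 with voom and 1 (without contusion library 1) to 1031 (without transection library 3) with a library left out. For swimming against walking they numbered 1, and 0 with the compared groups alone, 140 with DESeq2, 315 with voom and 0 to 298 with a library left out. Genes with r of at most -0.8 numbered 183 with library totals only, 7 as deviations from group means and 88 to 179 with a library left out; those with r of at least 0.8 numbered 54 as deviations and 103 to 154 with a library left out. The r of the profile score ran from 0.137 to 0.853 with a contused library left out. Group means of CPM moved by less than 1 SD under other scalings. The transection mean, 1362 CPM, became 1115 CPM with library totals only. The cause of these shifts was not tested.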
